A study of Mus musculus with 12 samples.

Results

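Gene expression was compared between arrays labelled KO/ERRb-wt and arrays labelled KO/mock, 8 of the 12 arrays of a study in the mouse embryonic stem (ES) cell line K3 of ERRb, an orphan nuclear receptor whose gene is Esrrb. The arrays were chosen by their labels alone, and every probe set was tested. According to the labels, KO/mock cells carried an Esrrb knockout with a mock treatment, KO/ERRb-wt cells carried the knockout and were given wild-type ERRb, and WT/mock cells, used here for reference levels and for the estimate of spread, had no knockout. The study's design text gives a lentivirus as the carrier of ERRb; the sources do not say what the mock treatment was or whether doxycycline drives ERRb. Each label covered 4 arrays from 2 clones, clones 8-3 and 8-4 for KO/mock, 12-1 and 12-3 for KO/ERRb-wt and 5-2 and 5-5 for WT/mock, so each group stands on 2 clonal lines. All cells were grown in N2B27 medium with LIF and inhibitors of GSK3 and MEK, and all were then kept for 3 days in N2B27 with both inhibitors and doxycycline, for which no LIF is listed. A comparison of these groups addresses what returning ERRb to knockout cells changes, if the labels hold.

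ERRb binds DNA at an extended nuclear receptor half-site, the ERR response element, and is active without a known natural ligand. In mouse ES cells it belongs to the network of transcription factors that holds the naive state, together with Nanog, Tfcp2l1, Tbx3 and the Kruppel-like factors, and it is switched on when GSK3 inhibition relieves repression by Tcf7l1. Other members of its family are known for controlling mitochondrial and fatty acid oxidation genes.

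Esrrb itself went against the labels. Its probe set read 7.38 to 7.39 on the 4 WT/mock arrays, 7.48 and 8.00 on clone 8-3 and 7.74 and 7.41 on clone 8-4 of KO/mock, against 6.99 and 6.76 on clone 12-1 and 6.50 and 6.68 on clone 12-3 of KO/ERRb-wt, in log2 units. Every array labelled as carrying ERRb thus read lower than every KO/mock array, with a difference of -0.93 ± 0.13 (SE, 4 arrays against 4; limma, adjusted p = 0.00436). The sources used here do not give the position of the lesion or the part of Esrrb that was delivered, so the probe set may check neither label. Whether the labels were exchanged, which would turn every direction given here, was not tested. Groups are therefore named by their labels, and "rose" and "fell" mean a higher or lower mean under the label KO/ERRb-wt, relative to KO/mock, at an adjusted p under 0.05.

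The cells carried the markers of ES cells. Of 8 such markers, Nanog, Sox2, Zfp42, Tdgf1, Sall4, Lin28a and Pou5f1 had mean log2 levels from 8.34 to 12.2 on the arrays labelled KO/mock, while the Dppa5a probe set read 4.98. Among them only Nanog was called, at -0.25. Of 10 markers of feeder fibroblasts, none was called. Fn1, which ES cells express too, stood at 12.0 on the KO/mock arrays, and the other 9, collagens, Lum, Dcn, Postn, Thy1, S100a4 and Acta2, lay between 3.13 and 6.21, with differences from -0.02 to 0.25. In these bulk samples, fewer cells of a type and less RNA per cell cannot be told apart.

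The comparison called 1329 of 41345 probe sets (3.21%), 404 higher and 925 lower. Counted with 1 probe set per gene, 977 of 22180 genes were called (4.40%), 274 higher (1.24%) and 703 lower (3.17%). Most calls were of modest size, with a median of 0.42 log2 units in absolute value, and 16 genes changed by at least 2-fold, 5 upward and 11 downward. The 2 groups did not overlap in 3772 of the 22180 genes and in 969 of the 977 called. The largest changes named here were taken from such genes, so lack of overlap in them was set by the rule and is no added support. Among the 9761 genes whose log2 level averaged 6 or more, which hold most members of the gene lists used here, 810 were called (8.30%), 173 higher (1.77%) and 637 lower (6.53%). These shares are the background for the counts of called list members given below. Genes that fell were brighter than genes that rose, with a median log2 level of 7.80 against 6.55 on the KO/mock arrays, as the plot of difference against level shows.

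The split between higher and lower calls moved with the scaling. The upper quartile of the deposited values was 7.00 to 7.06 on the arrays labelled KO/ERRb-wt and 7.07 to 7.12 on those labelled KO/mock, and the median difference over genes of level 6 or more was -0.04. As deposited, 30.4% of called probe sets were higher; the share was 42.2% after quantile normalization and 21.5% after median centring, which sets the median of every array to the same value. All 977 called genes kept their sign under quantile normalization, and 681 were still called.

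**Figure D1:**
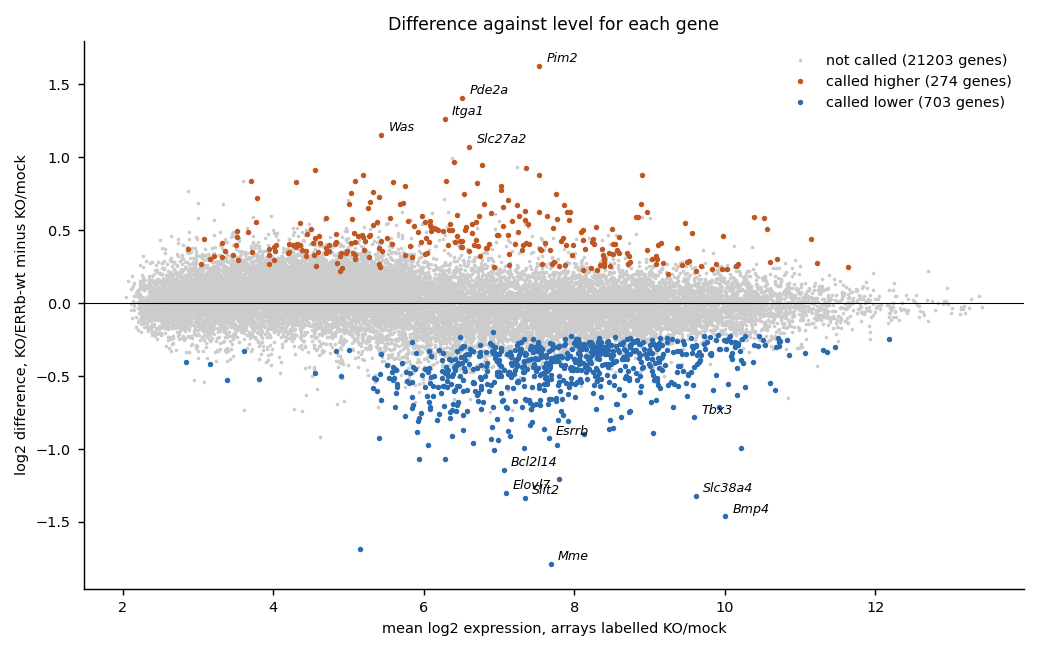
Log2 difference (KO/ERRb-wt minus KO/mock, 4 arrays each) against the mean log2 level on the arrays labelled KO/mock, 1 point per gene for 22180 genes. The 274 genes called higher (orange) reach 1.63 at Pim2, and the 703 called lower (blue), which lie at brighter levels, reach -1.79 at Mme; the unlabelled blue point at -1.69 is the predicted gene Gm9429.

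Many calls did not pass with a single clone left out. Without clone 8-3, 106 genes were called, of which 102 were among the 977, and without clone 12-3 there were 244. Without clones 8-4 and 12-1 there were 741 and 453. With the arrays of each clone averaged, so that 2 clones were compared with 2, limma called 0 probe sets (smallest adjusted p = 0.0932), with 6124 at an unadjusted p under 0.05. A call is described here as held when it passed with each of the 12 arrays and each of the 4 clones of both groups left out in turn. That was so for 89 genes, 21 higher and 68 lower, and all 89 also passed after quantile normalization and after median centring. Of 155 called genes that are named here or stand in a gene list, 48 held. Of the other 107, all but Tet2 lost their calls without clone 8-3, with adjusted p from 0.0501 to 0.299. Held calls still rest on 4 arrays against 4 from 2 clones each, and differences between these clones other than ERRb are part of them.

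The largest decrease among named genes was that of Mme, which encodes neprilysin, a cell-surface metallopeptidase that degrades small peptides. Mme read 7.76, 7.96, 7.53 and 7.49 on the arrays labelled KO/mock (clone 8-3 replicates 1 and 2, then clone 8-4 replicates 1 and 2) and 5.77, 5.96, 6.10 and 5.77 on those labelled KO/ERRb-wt (clone 12-1 replicates 1 and 2, then clone 12-3 replicates 1 and 2); the same order is used for other genes. The groups lay more than a log2 unit apart on every array, with a difference of -1.79 ± 0.12 (SE; limma, adjusted p = 5.44e-05), a 3.45-fold decrease. Of 24 cell-surface peptidases measured, only Mme fell and only Ece1, the endothelin-converting enzyme, rose, by 0.40 (adjusted p = 0.0123). The Ece1 call ended without clone 8-3, 12-1 or 12-3, each alone (adjusted p up to 0.132).

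Bmp4, the BMP ligand known for supporting ES cell self-renewal through Id genes, fell by the most after Mme and the predicted gene Gm9429, which stood at -1.69. It read 9.94, 9.75, 9.98 and 10.34 on the KO/mock arrays and 8.34, 8.58, 8.50 and 8.75 on the KO/ERRb-wt arrays, with no overlap. The difference was -1.46 ± 0.12 (SE; limma, adjusted p = 0.000215), and the call held. WT/mock arrays stood at 10.04, level with KO/mock. Bmp4 lies on chromosome 14, which did not stand apart within this comparison, with a median difference of -0.06 over its genes of level 6 or more.

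Slit2, a secreted guidance ligand for Robo receptors, read 7.39, 7.38, 7.11 and 7.49 on the KO/mock arrays and 6.04, 6.01, 5.85 and 6.15 on the KO/ERRb-wt arrays. It fell by 1.33 on the log2 scale (SE 0.12; limma, adjusted p = 0.000357), below its WT/mock mean of 6.56. Elovl7, an elongase of long-chain fatty acids, read 7.31, 7.26, 6.95 and 6.83 against 5.71, 5.84, 5.86 and 5.75. Bcl2l14, a member of the BCL2 family, read 7.10, 7.21, 6.98 and 6.98 against 5.78, 5.99, 5.99 and 5.93. Neither gene overlapped between groups, and their differences of -1.30 ± 0.11 and -1.14 ± 0.08 (SE; limma, adjusted p = 0.000301 and 5.44e-05) held. In the BCL2 family list, 1 of 17 measured members was called, Bcl2l14 itself.

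Pim2, a serine/threonine kinase that promotes survival and is known as an output of cytokine signalling, had the largest increase. It read 7.52, 7.29, 7.60 and 7.73 on the KO/mock arrays and 9.23, 9.26, 9.07 and 9.10 on the KO/ERRb-wt arrays. The difference was 1.63 ± 0.11 (SE; limma, adjusted p = 5.44e-05), a 3.09-fold increase, and the WT/mock mean of 7.49 was level with KO/mock. Pde2a, a phosphodiesterase that hydrolyses cAMP and cGMP, read 6.54, 6.22, 6.71 and 6.57 against 8.13, 7.59, 8.11 and 7.83, rising by 1.41 ± 0.15 (adjusted p = 0.00109). Gadd45g, a stress-inducible gene, read 5.31, 4.69, 5.29 and 5.05 against 5.89, 6.06, 5.75 and 6.00. Its difference of 0.84 ± 0.13 (adjusted p = 0.00813) was smaller, but like the other increases it left no overlap and held.

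**Figure D2:**
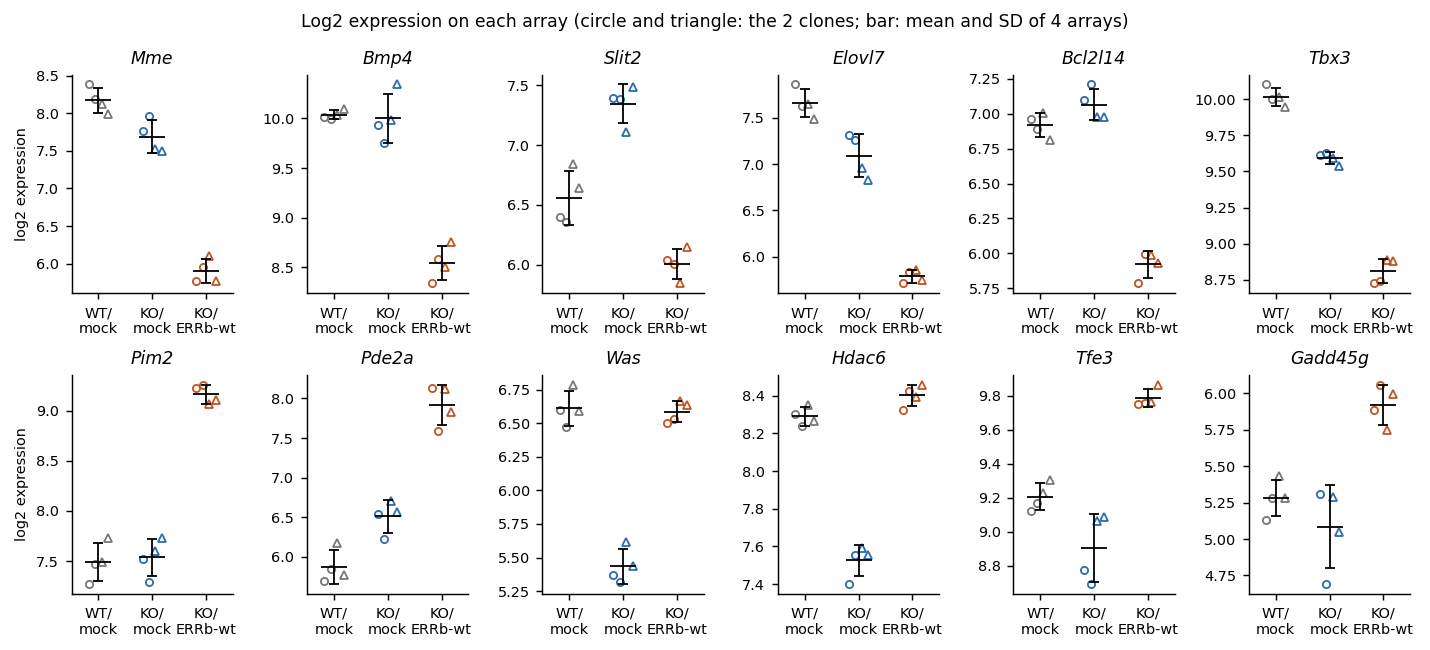
Log2 expression of 12 genes on each array by label, WT/mock in grey, KO/mock in blue and KO/ERRb-wt in orange; circles and triangles are the 2 clones of a label, and black bars give the mean and SD of 4 arrays. In each of the 12 genes the KO/ERRb-wt arrays lie wholly below (upper row) or above (lower row) the KO/mock arrays, while Was on the KO/ERRb-wt arrays lies within the range of WT/mock. Most of these genes were named by a rule that requires groups without overlap.

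Other genes with large decreases whose calls held were Cyp39a1 at -1.07, an enzyme that hydroxylates oxysterols, Ndrg2 and the band 4.1 family gene Epb41l4a, both at -0.99, the zinc finger genes Zfp521 at -0.98 and Zfp827 at -0.94, and the doublecortin-like kinase gene Dclk2 at -0.93. Epb41l4a was the tightest of them, at 10.16 to 10.24 on the KO/mock arrays and 9.13 to 9.27 on the KO/ERRb-wt arrays. The imprinted amino acid transporter gene Slc38a4 read 9.64, 9.67, 9.55 and 9.61 against 7.79, 8.16, 8.62 and 8.61, with clone 12-1 lower than clone 12-3. Its difference of -1.32 ± 0.21 (adjusted p = 0.00813) missed the threshold without clone 8-3 (adjusted p = 0.0976). Leaving out clone 8-3 also ended the calls of the collagen receptor gene Itga1 at 1.26 (adjusted p = 0.0636) and the fatty acid transport gene Slc27a2 at 1.07 (adjusted p = 0.0574). Pudp at -1.07, Copz2 at -1.01, Prickle1 at 0.94 and Irgm1 at 0.88 lost their calls without clone 8-3 (adjusted p from 0.0697 to 0.13) and without 1 further clone each. Des at -0.96, Zp3 at 0.97, Kitl at 0.91, Glod5 at 0.84 and Htr1b at 0.83 were called on all arrays but not without either clone 8-3 array, each left out alone (adjusted p up to 0.0539 for Glod5 and 0.116 for Kitl), nor without the whole clone.

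The promoters of called genes were read for the ERR response element, because ERRb is the factor that the labels say was returned. Windows from 250 bases before to 50 bases after each start, taken from RefSeq on GRCm38.p6, were searched for TNAAGGTCA on both strands. The element stood in 200 of 16990 genes with a window (1.18%), in 3 of 206 genes called higher (1.46%) and in 1 of 558 called lower (0.179%). Among genes of level 6 or more, where most of those called lower lie, it stood in 58 of 7800 (0.744%), and over all 32851 windows the share was 1.28%. The shorter core AGGTCA, which the longer element contains, stood in 16.4% of all genes with a window, in 13.9% of those of level 6 or more, in 13.6% of those called higher and in 16.8% of those called lower. Of the 30 genes with the largest changes, 24 have a window, too few to be read against a share of 1.18%. None of them carried the longer element. The 4 called genes that did are shown, with the element in capitals as read along the gene's strand.
Rpl10l: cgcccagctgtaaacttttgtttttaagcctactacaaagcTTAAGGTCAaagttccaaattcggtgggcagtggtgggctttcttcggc
Sgk1: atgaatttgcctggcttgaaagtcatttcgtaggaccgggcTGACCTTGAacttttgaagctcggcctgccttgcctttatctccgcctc
Apol11b: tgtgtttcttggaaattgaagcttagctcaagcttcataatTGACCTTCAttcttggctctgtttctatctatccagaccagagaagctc
Prkag2: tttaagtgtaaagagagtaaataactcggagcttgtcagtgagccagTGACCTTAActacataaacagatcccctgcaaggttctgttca

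These stretches lie at chr12:66284551-66284640 (minus strand), chr10:21978568-21978657 (plus strand), chr15:77643443-77643532 (minus strand) and chr5:24995754-24995843 (minus strand) of GRCm38.p6, upstream of the gene's start. In Rpl10l the element runs along the gene and begins 198 bases before the start, and in the other genes it is read on the opposite strand, beginning 63 bases before the start in Sgk1, 205 in Apol11b and 43 in Prkag2. Rpl10l, a ribosomal protein gene with near-identical copies that probes may not tell apart, rose by 0.50, and Sgk1, a kinase of the AKT family, by 0.48. Apol11b, of the apolipoprotein L family, rose by 0.32 from a dim 3.21. Prkag2, a regulatory subunit of the energy sensor AMPK, fell by 0.23. All 4 calls ended without clone 8-3 (adjusted p from 0.124 to 0.299), and each without at least 1 single array. Over called genes the median change was 0.42 in absolute value. A match is a description of the letters in these windows only, and nothing follows from it about binding by ERRb.

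Of 22 naive pluripotency genes measured, 9 fell and 1 rose, with a median difference of -0.22 against 0.02 over all genes and -0.04 over genes of level 6 or more. All 22 were of level 6 or more, where 6.53% of genes fell. Esrrb is 1 of the 9. Tbx3, a T-box factor of the naive network, read 9.61, 9.63, 9.60 and 9.53 on the KO/mock arrays and 8.73, 8.74, 8.89 and 8.88 on the KO/ERRb-wt arrays. Its fall of 0.78 (SE 0.06; limma, adjusted p = 0.000137) was the firmest of the list and held. The WT/mock mean of Tbx3 was 10.02, so KO/ERRb-wt lay farther from it than KO/mock did.

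Tcl1, a coactivator of AKT, read 9.66, 9.69, 9.54 and 9.44 on the KO/mock arrays and 8.93, 9.03, 9.01 and 9.11 on the KO/ERRb-wt arrays, a fall of 0.56. Zfp57, a zinc finger protein that keeps imprints methylated, fell by 0.39, from 10.15 to 10.27 down to 9.76 to 9.99. Both calls ended without clone 8-3, with adjusted p of 0.0901 and 0.0978, and that of Zfp57 also ended without clone 12-1. Nanog, at 12.14 to 12.23 against 11.91 to 11.96, fell by 0.25; the groups did not overlap, but the call ended without either clone 8-3 array (adjusted p up to 0.0587). Klf5 at -0.29, Klf4 at -0.30, Prdm14 at -0.40 and Tfcp2l1 at -0.23 were likewise called on all arrays and not without either clone 8-3 array (adjusted p up to 0.0556, 0.0736, 0.11 and 0.102). Of the naive pluripotency list, 4 fell without either clone 8-3 array and 2 without clone 8-3. After quantile normalization 6 members of the list fell and 2 rose, and the calls of Klf4, Prdm14 and Tfcp2l1 were lost (adjusted p = 0.061, 0.0798 and 0.0676).

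Other naive genes were not called lower. Dppa3, a maternal-effect gene also expressed in naive cells, read 8.91, 9.08, 8.60 and 8.81 on the KO/mock arrays and 9.45, 9.62, 9.17 and 9.53 on the KO/ERRb-wt arrays. It was called higher by 0.59 (adjusted p = 0.0304), a call that ended without any of the 4 clones and without 6 of the single arrays, among them both clone 12-1 and both clone 8-4 arrays (adjusted p up to 0.131). Zfp42 at 0.01, Klf2 at 0.13, Fgf4 at -0.09 and Nr5a2 at 0.26 did not pass. In the core pluripotency network, 2 of 15 measured members were called, the de novo methylation cofactor Dnmt3l at 0.59 and Utf1 at -0.35, with a list median of 0.01. Both calls ended without clone 8-3 (adjusted p = 0.114 and 0.0623). Sox2 and Pou5f1 differed by -0.02 and 0.09 and did not pass.

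**Figure D3:**
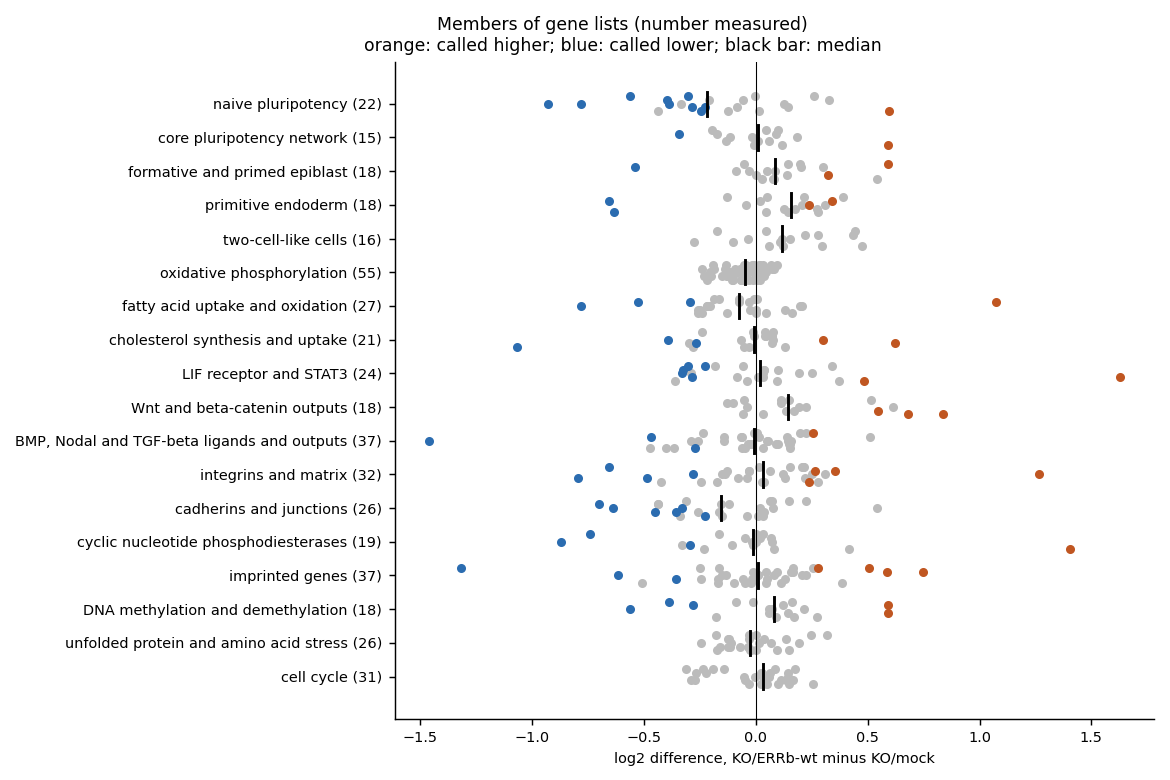
Log2 differences (KO/ERRb-wt minus KO/mock) of the measured members of 18 gene lists, 1 point per gene, with members called higher in orange, called lower in blue and not called in grey; black bars are list medians and numbers in brackets the genes measured. The naive pluripotency list has 9 members in blue and a median of -0.22, while the 55 oxidative phosphorylation genes lie between -0.24 and 0.09 with none called.

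Markers of other states were called in both directions. Of 18 formative and primed epiblast genes, Dnmt3b, a de novo DNA methyltransferase, and the ephrin receptor gene Epha1 rose, by 0.59 and 0.32, and Sox4 fell by 0.54 (16.7% called, against 4.40% of all genes and 8.30% of those of level 6 or more); all 3 calls ended without clone 8-3 (adjusted p from 0.13 to 0.241). Primitive endoderm genes gave 2 higher and 2 lower of 18 (22.2%), with the laminin gene Lama1 at -0.66 and Sox7 at -0.63 the largest; without clone 8-3 none of the 4 was called (adjusted p from 0.0838 to 0.243). In the mesoderm, neuroectoderm and trophoblast lists, 1 of 16, 1 of 15 and 3 of 18 were called, among them Evx1 at 0.52, Tubb3 at 0.67 and Gata2 at 0.76. Their mean levels on the KO/mock arrays were 6.10, 7.24 and 5.32, and without clone 8-3 the calls ended (adjusted p = 0.207, 0.139 and 0.115). None of 16 markers of two-cell-like cells was called, and all of them lay under level 6.

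Ligands and targets of the pathways that surround naive cells changed in single members. Among 37 BMP, Nodal and TGF-beta genes, 10.8% were called, against 4.40% of all genes. Of the 25 at level 6 or more, 1 rose and 3 fell, where 8.30% of such genes were called. Bmp4 was joined by Tgfb1 at -0.47 and the BMP signal transducer Smad1 at -0.27, and the ligand Nodal rose by 0.26. Only the Bmp4 call held, and those of Tgfb1, Smad1 and Nodal ended without either clone 8-3 array (adjusted p up to 0.0937, 0.0606 and 0.101). Among 18 Wnt outputs, 3 rose and none fell (16.7% called), with a median of 0.14. Notum, a secreted enzyme that inactivates Wnt ligands and is itself a Wnt target, read 6.22, 6.12, 6.47 and 6.39 against 7.16, 7.13, 7.16 and 7.09, a rise of 0.84 ± 0.11 (adjusted p = 0.00344) that ended only without clone 8-3 (adjusted p = 0.0562). The Wnt antagonist gene Dkk1 rose by 0.68 and the repressor gene Tcf7l1 by 0.55, and neither call held without clone 8-3, 12-1 or 12-3 (adjusted p up to 0.14 and 0.132). The Wnt targets Axin2 at 0.19, Sp5 at 0.51 and Lef1 at -0.05 did not pass. A second Notum probe set, at a dim 4.64 on the KO/mock arrays, differed by 0.20 and was not called.

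In the LIF receptor and STAT3 list, 2 of 24 members rose and 5 fell (29.2% called, against 4.40% of all genes). All of these were among the 21 at level 6 or more, where 8.30% of such genes were called. Klf4, Klf5 and Tfcp2l1 are also counted in the naive pluripotency list, Ocln among the junction genes and Pim2 in the X-linked run. After quantile normalization 2 members rose and 1 fell, and without clone 8-3 1 rose and none fell. Pim2 accounts for the largest value, and Sgk1 for the second rise; the falls were those of Klf4, Klf5, Tfcp2l1, Ocln and Jak1, none over 0.33, and these and the Sgk1 call ended without clone 8-3 (adjusted p from 0.151 to 0.299). Outputs of FGF and ERK, which the MEK inhibitor blocks, gave 1 of 17 called, Egr1 at 0.27, and no FGF ligand or receptor of 15 was called. Of 22 Notch and Hedgehog genes, Jag1 at 0.60 and Gli1 at 0.61 rose and Smo fell by 0.46 (13.6% called). The Egr1 call and these 3 ended without clone 8-3 (adjusted p from 0.0791 to 0.241). Tead4, the DNA-binding partner of YAP, read 9.37, 9.36, 9.14 and 9.11 against 8.63, 8.63, 8.71 and 8.75. It fell by 0.56 ± 0.07 (adjusted p = 0.0024) and held, while none of the other 17 genes of the YAP and TEAD list was called.

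Kit and its ligand moved in opposite directions. The receptor tyrosine kinase gene Kit read 9.45, 9.55, 9.45 and 9.59 on the KO/mock arrays and 8.93, 9.10, 8.88 and 9.16 on the KO/ERRb-wt arrays, a fall of 0.49 (adjusted p = 0.00631) that ended only without clone 8-3 (adjusted p = 0.0615). Kitl read 4.22, 4.50, 4.76 and 4.73 against 5.95, 5.61, 4.95 and 5.35, without overlap. Its rise of 0.91 ± 0.22 had an adjusted p of 0.0482 and was lost with 9 of the 12 arrays left out singly (adjusted p up to 0.116) and after quantile normalization (adjusted p = 0.0622). Both receptors Met, at -0.57, and Erbb3, at -0.42, fell too, in calls that ended without clone 8-3 (adjusted p = 0.149 and 0.122).

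Of 26 measured genes of the list of cadherins and junctions, 6 fell and none rose, and the median was -0.15; of the 21 at level 6 or more these were 6, where 6.53% of such genes fell. They were the desmosome genes Dsp at -0.70, Dsg2 at -0.45 and Pkp2 at -0.36, the tight junction genes Cldn4 at -0.64 and Ocln at -0.33, and the adherens junction gene Ctnna1 at -0.23. Those of Cldn4 and Dsg2 passed whichever single array was left out (adjusted p up to 0.033 and 0.039), but each of the 6 calls ended without clone 8-3 (adjusted p from 0.0578 to 0.19). After quantile normalization 4 of the 26 fell. A second Dsg2 probe set, at a dim 4.28 on the KO/mock arrays, differed by 0.12 and was not called. The list's median moved with the KO/mock arrays, to -0.08 without clone 8-3 replicate 2, -0.04 without clone 8-3 and -0.25 without clone 8-4.

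In the list of integrins and matrix, 4 of 32 genes rose and 4 fell (25% called, against 4.40% of all genes). Of the 19 at level 6 or more, 3 rose and 4 fell, where 8.30% of such genes were called. Without either clone 8-3 array the counts over all 32 were 1 and 3. They were 2 and 4 with median centring, and 0 and 1 without clone 8-3. Itga3, the alpha subunit of a laminin receptor, read 6.91, 6.96, 7.06 and 6.99 on the KO/mock arrays and 6.20, 6.25, 6.17 and 6.10 on the KO/ERRb-wt arrays. It fell by 0.80 ± 0.08 (adjusted p = 0.000648), far outside the spread of either group, and held. Itga1, a collagen receptor subunit, read 6.11, 6.13, 6.35 and 6.53 against 7.73, 7.59, 7.59 and 7.26, also without overlap. The basement membrane genes Lama1 and Nid1 fell by 0.66 and 0.49, and both calls ended without clone 8-3 or 12-3 (adjusted p up to 0.0838 and 0.0927). Those of Lama5 at 0.27, Itga4 at 0.35, from a dim 3.72, and Itga6 at -0.28 ended without clone 8-3 too (adjusted p from 0.133 to 0.186). Among 37 guidance genes (10.8% called), Slit2 alone fell, and 3 rose: the semaphorin gene Sema3e, by 0.72 from a dim 3.78, Epha1 and the netrin receptor gene Unc5b. These 3 calls ended without clone 8-3 (adjusted p from 0.0872 to 0.166).

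The cyclic nucleotide phosphodiesterases, which break down cAMP and cGMP, showed 1 rise and 3 falls among 19 (21.1% called). Pde2a rose, as described, and Pde5a, the cGMP-specific enzyme, fell by 0.74, from 6.24 to 6.52 down to 5.58 to 5.77 (adjusted p = 0.00181), and held. Pde8a at -0.87 and Pde9a at -0.29 fell in calls that ended with single arrays left out (adjusted p up to 0.081 and 0.0673), among them clone 8-3 replicate 2 and clone 8-4 replicate 2.

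Genes of energy metabolism, which other members of the ERR family are known to control, differed between lists. Of the 55 measured oxidative phosphorylation genes, subunits of the respiratory chain and ATP synthase, limma called none, with a median of -0.05 and a lowest adjusted p of 0.103 at Sdhc. With dim probe sets left out 3 of them were called lower, and with the trended robust prior, which lets the prior variance vary with level, 2. Among 27 fatty acid uptake and oxidation genes, 3 fell and 1 rose (14.8% called, against 4.40% of all genes). All of these were among the 24 at level 6 or more, where 8.30% of such genes were called. Acadl, the long-chain acyl-CoA dehydrogenase of mitochondria, read 8.65, 8.85, 8.45 and 8.52 on the KO/mock arrays and 7.88, 7.75, 7.92 and 7.80 on the KO/ERRb-wt arrays. It fell by 0.78 ± 0.09 (adjusted p = 0.00205) and held. Slc27a2, which activates and imports very long-chain fatty acids, read 6.43, 6.39, 6.77 and 6.84 against 8.02, 7.70, 7.51 and 7.50. A second Slc27a2 probe set, at a dim 4.16 on the KO/mock arrays, differed by 0.01 and was not called. Cpt1a, the carnitine transferase that admits fatty acids to mitochondria, fell by 0.53, and Hadh by 0.30; both calls ended without either clone 8-3 array (adjusted p up to 0.0666 and 0.0937).

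In the other metabolic lists, Pdk4 at -0.56, Idh2 at -0.47 and Pdk1 at -0.22 fell among 23 tricarboxylic acid cycle and pyruvate genes, Elovl7 and the desaturase gene Scd1 fell among 23 fatty acid synthesis genes, and Pfkp at -0.25 was the single call among 20 glycolysis genes. Except for Elovl7 these calls ended without clone 8-3 (adjusted p from 0.132 to 0.257). Among 21 cholesterol genes 23.8% were called. Ebp, a sterol isomerase, read 8.98, 9.01, 8.99 and 8.91 against 9.56, 9.63, 9.57 and 9.62 and rose by 0.62 ± 0.06 (adjusted p = 0.000532). Cyp39a1 fell, as described, together with the synthesis gene Cyp51 at -0.39 and the feedback regulator gene Insig1 at -0.27, and Mvd rose by 0.30. The calls of Ebp and Cyp39a1 held, while those of Cyp51, Insig1 and Mvd ended without clone 8-3 (adjusted p from 0.108 to 0.15). Ebp lies close to the X-linked genes described next.

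Pim2, Was, Tfe3 and Hdac6 are neighbours on the X chromosome. In RefSeq order on GRCm38.p6, among genes of level 6 or more other than microRNA genes, 15 consecutive genes from Clcn5 to Was all rose, with a median difference of 0.53. They are Clcn5, Plp2, Gpkow, Wdr45, Praf2, Ccdc120, Tfe3, Gripap1, Kcnd1, Otud5, Pim2, Pqbp1, Timm17b, Hdac6 and Was. The run was picked by these calls, so its size is a description. Of the other 282 such genes on the X chromosome, 7 rose and 28 fell, and their median was -0.08.

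Within the run the rise was uneven. Was, which promotes actin branching and is best known in blood cells, read 5.37, 5.32, 5.61 and 5.44 on the KO/mock arrays and 6.51, 6.53, 6.67 and 6.64 on the KO/ERRb-wt arrays, a rise of 1.15 ± 0.08 (adjusted p = 9.75e-05). Tfe3, a transcription factor of lysosomal genes that opposes exit from the naive state, read 8.77, 8.69, 9.06 and 9.09 against 9.75, 9.76, 9.76 and 9.86, a rise of 0.88 ± 0.09 (adjusted p = 0.000943). Hdac6, a tubulin deacetylase, read 7.40, 7.55, 7.59 and 7.55 against 8.33, 8.43, 8.40 and 8.46, a rise of 0.88 ± 0.06 (adjusted p = 5.44e-05). The chloride transporter gene Clcn5 rose by 0.78, the deubiquitinase gene Otud5 by 0.52 and Plp2 by 0.44. These 6 calls and that of Pim2 held, while those of Gpkow, Timm17b and Kcnd1 were lost only without clone 8-3 (adjusted p = 0.105, 0.0507 and 0.0507). The remaining 5 members also lost their calls without clone 8-3 (adjusted p from 0.0904 to 0.185).

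At the edges of the run, Wdr13 and Tbc1d25 next to Was were not called, and Ebp and Porcn beyond them rose by 0.62 and 0.33. The Ebp call held, and that of Porcn ended without clone 8-3 (adjusted p = 0.256). Every member of the run except Pim2 had a lower mean on KO/mock than on WT/mock. Over the run, KO/mock differed from WT/mock by a median of -0.30. Arrays labelled KO/ERRb-wt, set against the same reference, had a median difference of 0.22. KO/mock lay farthest below WT/mock for Was, Clcn5 and Hdac6, whose WT/mock means were 6.61, 8.03 and 8.29. In some members, such as Gripap1 at -0.10, the difference of KO/mock from WT/mock did not pass. For Pim2 the WT/mock mean was level with KO/mock. The comparison with WT/mock shares the KO/mock arrays. Tfe3 was measured with 29 further genes of its pathway and of lysosomes, of which Flcn and Sqstm1 rose, by 0.27 and 0.23, and Wipi1 and Rragb fell, by 0.71 and 0.31; of these 5 called genes only Tfe3 held, the others ending without clone 8-3 (adjusted p from 0.124 to 0.249).

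**Figure D4:**
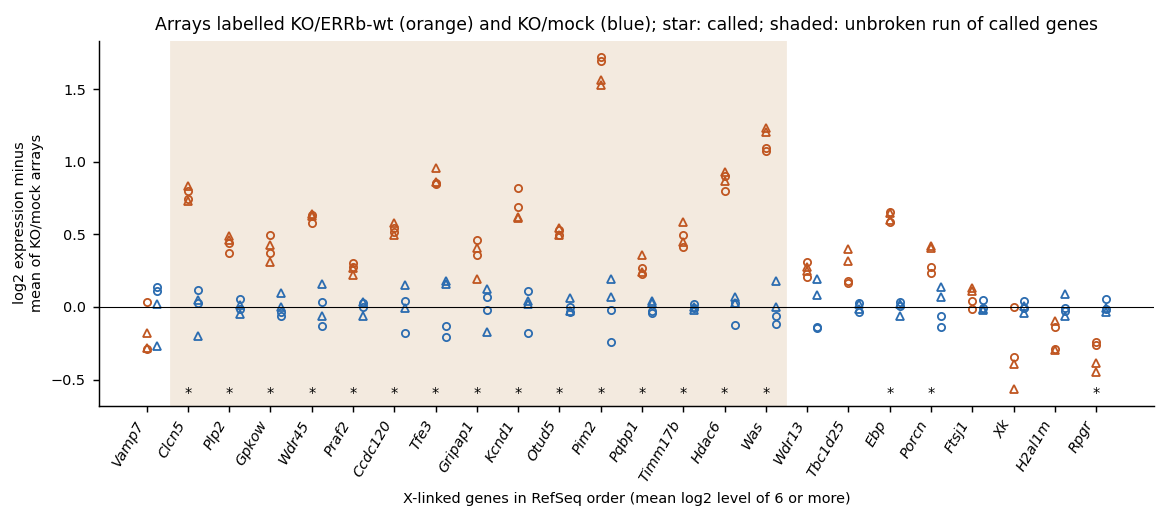
Log2 expression of X-linked genes in RefSeq order, as the difference of each array from the mean of the KO/mock arrays, with KO/ERRb-wt arrays in orange, KO/mock arrays in blue (shifted to the right) and the 2 clones of a label as circles and triangles. All 15 genes in the shaded run have their 4 orange points above their 4 blue points, and Pim2 and Was stand highest, at 1.63 and 1.15. The run was picked by its calls, and 969 of the 977 called genes show no overlap, so this separation is no added support.

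DNA methylation genes moved in both directions. Of 18 measured, Dnmt3l and Dnmt3b rose by 0.59 each, and Tet2 at -0.56, Zfp57 at -0.39 and Mbd4 at -0.28 fell (27.8% called). Dnmt3b read 10.22, 10.09, 10.55 and 10.68 on the KO/mock arrays and 11.01, 10.96, 10.98 and 10.96 on the KO/ERRb-wt arrays, so that clone 8-4 lay nearer to KO/ERRb-wt than clone 8-3 did. Its call ended without either clone 8-3 array and without either clone 12-3 array (adjusted p up to 0.065), and the Dnmt3l call without clone 8-3 or 12-3 (adjusted p up to 0.114). The Tet2 call passed without clone 8-3 (adjusted p = 0.0241) but not without some single arrays (adjusted p up to 0.104). The Zfp57 and Mbd4 calls ended without clone 8-3 (adjusted p = 0.0978 and 0.175). Among 37 imprinted genes, 4 rose and 3 fell (18.9% called). Plagl1, an imprinted zinc finger gene, read 8.24 to 8.27 on the KO/mock arrays and 7.53 to 7.74 on the KO/ERRb-wt arrays, a fall of 0.62 ± 0.07 (adjusted p = 0.00113) that held. Sfmbt2 rose by 0.75, Peg3 by 0.59, Peg10 by 0.51 and Impact by 0.28, and these calls ended without clone 8-3 (adjusted p from 0.0885 to 0.155).

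None of 31 cell cycle genes and none of 26 unfolded protein and amino acid stress genes was called by limma, with medians of 0.03 and -0.03. With dim probe sets left out, 5 cell cycle genes were called lower, and with the trended robust prior 3 lower and 1 higher; under either setting 1 gene of the stress list was called higher. Of 19 p53 targets, Perp at 0.60, Plk2 at 0.58 and Phlda3 at 0.36 rose (15.8%), where 1.24% of all genes and 1.77% of those of level 6 or more did. Of 30 interferon genes, Irgm1 at 0.88 and Irf1 at 0.38 rose (6.67%). All 5 of these calls ended without clone 8-3 (adjusted p from 0.0507 to 0.279). Of 43 nuclear receptors, Esrrb fell and the retinoic acid receptor gene Rarg rose by 0.48, a call that ended without clone 8-3 (adjusted p = 0.147). Polycomb, germline and AKT lists gave 2 calls each, of 24, 31 and 20 genes.

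The clones of a label were compared by the same test, with 2 arrays against 2, so that few calls do not show that the clones were alike. Between clones 12-3 and 12-1, limma with the 6 clones as groups called 7 of 41345 probe sets (0.0169%), none of them standing for a gene, with 2756 at an unadjusted p under 0.05. Between clones 8-4 and 8-3 it called 2 (0.00484%), with 2920 at an unadjusted p under 0.05. They were the imprinted genes Phlda2, at 7.77 and 8.28 on clone 8-3 but 4.76 and 5.03 on clone 8-4, and Mest, at 10.97 and 10.83 against 12.00 and 12.05. Phlda2 also read 6.80 and 6.71 on clone 12-1 and 4.98 and 5.32 on clone 12-3, and neither gene was called between the labels. Fitted on the arrays of the clones alone, both counts were 0.

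The largest differences of the comparison belonged to probe sets with no listed gene. Of the 44 probe sets called at 2-fold or more, 27 had no listed gene, 3 higher and 24 lower. Of all probe sets, 6 were called at 4-fold or more, all lower and all without a gene, and some of these repeat one another row for row, leaving 4 distinct rows. Probe set 17549018 read 11.16, 11.12, 11.06 and 11.12 on the KO/mock arrays and 6.89, 6.74, 8.38 and 8.65 on the KO/ERRb-wt arrays. Probe set 17549014 read 12.25, 12.19, 12.23 and 12.24 against 8.61, 8.61, 10.07 and 10.16. Both were tight across KO/mock, and both split the KO/ERRb-wt clones, clone 12-3 reading 1.70 and 1.51 higher than clone 12-1. Their differences of -3.45 and -2.86 passed with every array and clone left out in turn (adjusted p up to 0.0262 and 0.0327) but not on clone averages (adjusted p = 0.143 and 0.153). WT/mock arrays stood between the groups, at 8.91 and 10.30. These probe sets were picked after their values were seen.

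**Figure D5:**
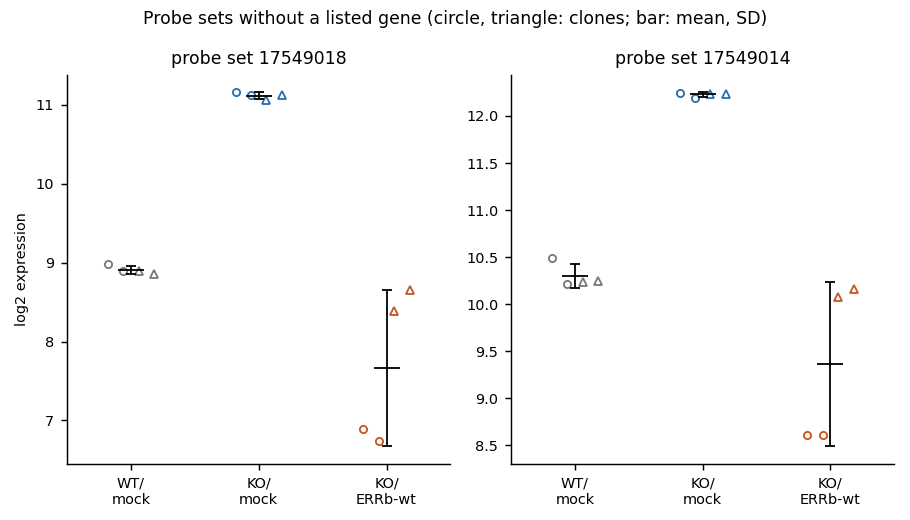
Log2 expression on each array of 2 probe sets without a listed gene, by label, with the 2 clones of a label as circles and triangles and black bars for the mean and SD of 4 arrays. The 4 KO/mock arrays lie together near 11.1 and 12.2, and the KO/ERRb-wt arrays lie lower, with clone 12-1 (circles) below clone 12-3 (triangles).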

How the data were processed

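The authors hybridised each of 12 RNA samples to 1 Affymetrix MoGene 2.0 ST array, and the deposited table holds log2 values. Per the submitters' processing notes, these came from RMA as run by Expression Console; the sources used here state no version. Because RMA scales all arrays alike, it hides a shift common to most genes. No detection calls were used here. Of 41345 probe sets, 23521 had 1 listed symbol, 1814 several and 16010 none; for a gene with several 1-symbol probe sets, the one brightest on average over the 12 arrays was used.

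All 12 arrays entered 1 linear model of the 3 labels with clone as a random block (correlation 0.0286; limma 3.58.1, R 4.3.3, statmod 1.5.0), with two-sided tests and Benjamini-Hochberg adjustment over all probe sets. P-values measure only the spread between these arrays, which the labels call biological replicates within 2 clones per group. With a correlation this low the model treats the arrays of a clone as nearly independent; with dim probe sets left out it was 0.172.

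The groups, lists and rule for named genes were chosen with earlier results of these data known. The rule took Esrrb, the 15 largest non-overlapping called changes each way, up to 4 called members per list and direction, genes called between clones and the X-linked neighbours. Of the genes called, 764 of 977 had a RefSeq promoter window. The model did not pair arrays by replicate number.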

Additional observations from a re-analysis of the deposited data

Results flagged for a closer look

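For 173 named genes the 4 arrays of each label were searched for 1 array standing apart by Dixon's ratio, and 13 of 346 sets of 4 arrays held one; chance alone marks about 1 set in 20. Among the arrays labelled KO/ERRb-wt, the lone highest values were those of Tfe3 at 9.86 (the others 9.75 to 9.76), Evx1 at 6.77, Smo at 8.86 and Apol11b at 3.66, and the lone lowest those of Zfp42 at 11.73, Utf1 at 10.66, Epha1 at 8.89 and Mapk8 at 8.23. Among the arrays labelled KO/mock, Klf4 at 9.25 (the others 9.02 to 9.04) and Egr1 at 5.48 had a lone highest array, and Hadh at 10.62, Pde8a at 6.34 and Ddx4 at 7.72 a lone lowest.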

How the results depend on the processing

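No called gene or called probe set named here reversed its direction under any alternative. In 969 of the 977 called genes the groups did not overlap, so leaving out or averaging arrays could not reverse their direction. Named genes that were not called were not checked for a reversal. From 1329 probe sets and 977 genes, the counts fell to 777 and 553 with only the arrays of both labels compared, and to 0 on clone averages, where the count at 2-fold or more was 0 too. With dim probe sets left out, 1545 genes and 24 probe sets of at least 2-fold were called, against 977 and 44. Averaging all probe sets of a gene gave 1529 genes. Leaving out clone 8-3, 12-1 or 12-3 gave 145, 761 or 333 probe sets and 106, 453 or 244 genes. The 2-fold count of 44 became 29, 81 and 96 without clones 8-3, 8-4 and 12-1. With single arrays left out, the counts ranged from 544 to 1399 probe sets and from 406 to 1008 genes, lowest without either clone 8-3 array. The calls between clones, 7 and 2, became 0 and 0 on the arrays of those clones alone, by the same test. The causes were not tested. With the replicate block, 1258 probe sets and 911 genes were called. Same-numbered arrays deviated with correlations from -0.07 to 0.19 and other arrays with correlations from -0.15 to 0.09. These ranges overlap, so pairing by number was neither shown nor excluded. No blocked call is read as a weaker effect. Signal over background was not available for these values, so limits of detection are unknown.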

Other observations

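The 20 protein-coding genes with the smallest adjusted p outside the gene lists, the largest changes and the X chromosome were taken after their values were seen; 15 fell and 5 rose. All 20 calls held with each array and clone left out in turn. Because the genes were picked by their adjusted p on these same arrays, this is no separate support. Coro6, a coronin that binds actin, read 7.13, 7.07, 7.17 and 7.12 on the arrays labelled KO/mock and 6.23, 6.28, 6.27 and 6.19 on those labelled KO/ERRb-wt, a fall of 0.88 ± 0.05 (SE, 4 arrays against 4; limma, adjusted p = 3.33e-05). Anxa6, a calcium-dependent membrane-binding annexin, fell by 0.89, the endocytic receptor gene Ly75 by 0.86, the microtubule-associated exchange factor gene Arhgef2 by 0.74 and the protease inhibitor gene Spint1 by 0.58. Esrp1, an epithelial splicing regulator, read 7.82 to 7.91 against 8.48 to 8.63 and rose by 0.67 (adjusted p = 0.00032), as did Crabp2, which binds retinoic acid inside cells, by 0.75, and the receptor gene Tnfrsf8 by 0.82.

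Among lipid and energy genes outside the lists, Plin2, which coats lipid droplets, fell by 0.65 (adjusted p = 0.00132) and held. Prkaa2, the catalytic alpha subunit of AMPK, read 8.50, 8.55, 8.33 and 8.51 on the KO/mock arrays and 7.64, 7.86, 7.46 and 7.74 on the KO/ERRb-wt arrays, a fall of 0.80 ± 0.10 (adjusted p = 0.00252) that missed the threshold without clone 8-3 (adjusted p = 0.0501). The kinase gene Mapk8, known as JNK1, fell by 0.56 and Ivns1abp by 0.60. Ddah1, which degrades an inhibitor of nitric oxide synthase, fell by 0.80, the glycosyltransferase gene B3gnt5 by 0.87 and Iqgap2, a scaffold that binds actin, by 0.54. Rnf213, a large ubiquitin ligase, rose by 0.80 and the reductase gene Ptgr1 by 0.63.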
